A study of Mus musculus with 6 samples.

Results

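The 10 genes described here code for major urinary proteins: Mup1, Mup2, Mup3, Mup7, Mup11, Mup12, Mup17, Mup20, Mup21 and Mup22. They were taken by gene name from a table of 31950 genes, which holds 36 rows with a Mup name in all. They were selected on their difference between WT and β-catenin Δ(ex3)/+ livers in these same samples, so their values in the 2 groups are given as a description, without a test. RNA-seq was done on livers of C57BL/6 mice labelled 8 weeks old, 3 WT and 3 β-catenin Δ(ex3)/+, with 1 library per liver. The latter are called mutant livers from here on. β-catenin Δ(ex3)/+ mice lack exon 3 of Ctnnb1 on 1 allele, the part of β-catenin through which it is marked for breakdown. For livers of this genotype the study describes a Cre recombinase driven by the albumin promoter, which is active in hepatocytes, and switched on by tamoxifen. It also describes mice given Cre by adenovirus, but names them β-catenin lox(ex3)/+. Its RNA-seq methods give the genotype and not the form of Cre. Mice with a constitutive form died, by its account, before the age in the labels. Whether the WT mice carried Cre or received tamoxifen, and the sex of the mice, are not given in the sources used here. The values are FPKM, fragment numbers scaled by transcript length and library total, so levels of different genes can be set side by side per length.

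Major urinary proteins are small lipocalins, barrel-shaped proteins that carry lipophilic molecules in a central pocket. The mouse liver makes most of them, secretes them into blood, and the kidney passes them into urine, where they hold and slowly release volatile pheromones. Their genes lie as a tandem array on chromosome 4, with near-identical genes at the centre of the array and more divergent ones towards its edges. In mice their transcription is known to start around puberty, to be higher in males, and to depend on pulsatile growth hormone acting through STAT5, as well as on androgen, thyroid hormone and glucocorticoids.

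All 10 genes lay on the minus strand of chromosome 4, between 60066469 and 62150863, a stretch of 2084 kb. These coordinates are those of the deposited table and match GENCODE M21 (GRCm38) for 10 of 10 members. In GENCODE M21 the coding sequences of the members were 540 to 552 bases long. Over the 45 pairs of members their identity ran from 83.15% to 99.63%, with a median of 91.3%, and 21 pairs were at 98% or more. Mup11 and Mup22 differed at 2 of 543 coding bases, and Mup1 and Mup12 at 2 of 540. Mup3 and Mup21, which are neighbours at one edge of the array, were each other's nearest relative at 95.4%. Mup20, which codes for darcin, the protein pheromone by which male urine attracts females, had no member closer than Mup17 at 91.3%. The stretch of 60 coding bases that varied most among the members shows these classes, and is printed because it shows how little separates the highest genes from each other. Capitals mark bases that differ from Mup22.
Mup22: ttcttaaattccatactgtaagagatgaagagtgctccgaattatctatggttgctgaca
Mup12: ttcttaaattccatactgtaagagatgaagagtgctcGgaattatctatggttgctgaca
Mup17: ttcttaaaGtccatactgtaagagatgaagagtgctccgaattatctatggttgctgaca
Mup3: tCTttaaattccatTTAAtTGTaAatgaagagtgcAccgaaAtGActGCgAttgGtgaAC
Mup20: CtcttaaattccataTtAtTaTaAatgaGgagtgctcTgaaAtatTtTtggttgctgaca
Mup21: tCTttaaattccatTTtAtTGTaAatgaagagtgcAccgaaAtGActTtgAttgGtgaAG
In this stretch 25 positions varied among the 10 members, which carried 6 distinct sequences. Mup1, Mup2 and Mup11 had the same 60 bases as Mup12, and Mup7 had those of Mup17. Mup3 differed from Mup22 at 20 of the 60 bases, Mup21 at 18 and Mup20 at 11, whereas each of the other members apart from Mup22 itself differed at 1.

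The table of RefSeq promoters used (GRCm38.p6, from 250 bases before to 50 after a gene's start) held 6 of the 10 members, namely Mup2, Mup3, Mup7, Mup11, Mup17 and Mup21. Mup1, Mup12, Mup20 and Mup22 had no entry. For Mup17, Mup3 and Mup21 the RefSeq start lay 39, 25 and 22 bases inside the gene as the deposited table gives it. Their windows are printed on the minus strand from 220 bases before the RefSeq start up to the gene of the table, since they show both classes of promoter. Capitals mark TGTTCT, the one motif found in the printed stretches.
Mup17, chr4:61595872-61596052: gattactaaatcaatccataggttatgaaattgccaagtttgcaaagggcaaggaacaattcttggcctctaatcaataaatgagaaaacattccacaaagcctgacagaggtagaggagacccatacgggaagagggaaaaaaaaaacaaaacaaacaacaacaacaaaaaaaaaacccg
Mup3, chr4:62087343-62087537: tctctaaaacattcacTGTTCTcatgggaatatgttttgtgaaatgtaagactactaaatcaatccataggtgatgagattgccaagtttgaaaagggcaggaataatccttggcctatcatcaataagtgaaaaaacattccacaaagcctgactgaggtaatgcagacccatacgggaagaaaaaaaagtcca
Mup21, chr4:62150864-62151061: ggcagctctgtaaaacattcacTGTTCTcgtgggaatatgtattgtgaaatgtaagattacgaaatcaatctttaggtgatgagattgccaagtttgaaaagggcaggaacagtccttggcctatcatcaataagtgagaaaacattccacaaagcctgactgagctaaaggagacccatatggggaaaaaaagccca
Aligned bases of the promoter windows were 99.32% to 99.64% identical among Mup2, Mup11 and Mup17, 93.88% identical between Mup3 and Mup21, and 87.65% identical between Mup17 and Mup3. TGTTCT, a half-site of the steroid receptors, was found in Mup3 at position -204 and in Mup21 at position -198 from the RefSeq start, and in none of the other 4 windows. It occurred in 19% of the 32851 promoter windows of all genes. TATATAAG, a TATA box variant added after the sequences had been read, was found in 5 of the 6 windows, all but that of Mup7, and in 1.01% of all windows. In Mup17, Mup3 and Mup21 it began at base 15 of the gene in the deposited table, so it is not in the stretches printed. The Mup7 window was placed further upstream, since the bases just before its RefSeq start match the middle of the Mup17 stretch. A TATATAAG of Mup7 past the end of its window would thus have been missed. Another 5 motifs were searched on both strands and not found in any of the 6 windows: the STAT motif TTCNNNGAA, the TCF/LEF motifs CTTTGAA and CTTTGAT, the TATA box TATAAA and the C/EBP motif TTGCNNAA, with 8.3%, 5.14%, 3.73%, 13.6% and 10.8% of all windows holding them. The matches found did not overlap each other.

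Several features of the 6 libraries moved with genotype and stand beside every value that follows. Xist, the RNA that coats an inactive X chromosome, had 20.3, 22.2 and 21.1 FPKM in the WT livers and at most 0.0146 FPKM in the mutant livers. The Y-linked Eif2s3y had at most 0.0169 FPKM in WT livers and 9.94, 9.20 and 9.37 FPKM in mutant livers. Of the other Y-linked genes, Ddx3y, Uty and Kdm5d were likewise at or near 0 in WT livers and higher in each mutant liver. H19, Igf2 and Afp, which the mouse liver is known to switch off after birth, had means of 2353, 828.5 and 607.6 FPKM in the WT livers labelled 8 weeks, and 0.0260, 0 and 2.55 FPKM in the mutant livers. Genotype, the sex read from these genes, and the expression of genes of the young liver therefore cannot be told apart as sources of a difference in Mup expression. Ctnnb1 itself had 25.9, 28.0 and 27.3 FPKM in WT and 25.4, 25.2 and 25.0 FPKM in mutant livers, and values per gene cannot show the loss of an exon. The β-catenin targets Glul, Oat and Axin2 had WT means of 103.2, 15.7 and 1.11 FPKM and mutant means of 625.9, 608.5 and 6.57 FPKM. Sp5, Tbx3 and Rhbg, checked beside them, were called higher too, but the check was not uniform. Mean Lgr5 moved only from 0.587 to 0.977 FPKM and was not called. Cyp2e1 averaged 1422 FPKM in mutant livers, below its WT mean of 1672 FPKM, and was not called either. Hepatocyte markers were present throughout, with 6 of 6 above 1 FPKM, but did not move together. Ttr and Apoa1 were called lower, Alb had means of 41430 FPKM in WT and 24840 FPKM in mutant livers and Serpina1a 2846 and 2388 FPKM, whereas Cps1 had 89.0 and 177 FPKM and Apob 27.1 and 79.1 FPKM, with 148.8 FPKM in mutant replicate 1. Summed markers of Kupffer cells were 110 to 116 FPKM in WT and 367 to 378 FPKM in mutant livers. Those of other cell types were lower in mutant livers: erythroid markers 1780 to 2000 against 1000 to 1020 FPKM, endothelial markers 27 to 27.5 against 16.5 to 17 FPKM, stellate markers 18.5 to 19.2 against 6.42 to 6.94 FPKM, lymphocyte markers 10.5 to 11.7 against 1.96 to 2.26 FPKM and cholangiocyte markers 4.48 to 4.8 against 3.4 to 4.05 FPKM. The lymphocyte sum was mostly Cd79a, with means of 10.38 FPKM in WT and 1.475 FPKM in mutant livers. Single markers went the other way: Cd3e of the lymphocyte markers had means of 0.205 and 0.502 FPKM. Of the cholangiocyte markers, Sox9 had 0.528 and 0.81 FPKM and Krt7 0.357 and 0.45 FPKM. The part of these shifts in the Mup values was not tested, and in whole liver fewer cells of a type cannot be told apart from less RNA per cell. Relative depth, estimated from steps in the low values, was 99% to 100% of the deepest library in WT and 68.7% to 79% in mutant livers. By this estimate the WT libraries, where the Mup genes were near 0, were the deeper ones. The part of depth in the Mup values was not tested.

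In the WT livers the 10 genes were at or near 0, and in every mutant liver each had at least 13.0 FPKM. Of these, 7 were listed at 0 in each of the 3 WT livers, and a 0 in a table without counts can also be a failed estimate. The highest WT value of any member was 0.845 FPKM, for Mup3. Each of the 10 passed the filter of a mean of 0.5 FPKM over the 6 livers, and did so through the mutant livers alone.

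Mup22 had the highest mean level. Its FPKM were 0 in each WT liver and 1289, 1483 and 1744 in mutant replicates 1 to 3. It ranked 55th, 50th and 43rd among the 31950 genes of these livers. Mup12 was listed at 0 in each WT liver and at 1296, 1227 and 1281 FPKM in the mutant livers. Mup17 was also listed at 0 in each WT liver, and its mutant values of 1007, 492.7 and 1569 FPKM spread much more widely, with replicate 2 the lowest. These 3 genes belong to the near-identical class.

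Mup3, of the divergent class, was the one member above 0 in all WT livers, at 0.845, 0.266 and 0.718 FPKM. It had 793.3, 812.8 and 828.6 FPKM in the mutant livers, a difference of 9.0 (standard error 0.141) on the log2(FPKM + 1) scale. The groups lay far apart and the 3 mutant values were within 1.04 times of each other. Mup7 was listed at 0 in each WT liver and at 508.9, 502.9 and 426.7 FPKM in the mutant livers. Mup2 had 0, 0.0594 and 0.0540 FPKM in WT and 367.9, 373.2 and 368.6 FPKM in mutant livers. Its log2(FPKM + 1) difference was 8.48 (standard error 0.0411), and its coefficient of variation of 0.779% over the mutant livers was the smallest of the 10.

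The remaining members were lower. Mup20, the darcin gene, was listed at 0 in each WT liver and at 133.3, 169.1 and 145.8 FPKM in the mutant livers. Mup11 was listed at 0 in each WT liver, and at 92.7, 137.3 and 15.7 FPKM in the mutant livers. Mup1, which has been linked to glucose and lipid metabolism in liver, was listed at 0 in each WT liver and at 99.5, 15.8 and 89.0 FPKM in the mutant livers. The lowest mutant liver was replicate 3 for Mup11 and Mup7, replicate 2 for Mup1, Mup12 and Mup17, and replicate 1 for the other members. Mup21, the neighbour of Mup3, had 0.0588, 0 and 0.410 FPKM in WT and 13.0, 15.6 and 15.7 FPKM in mutant livers, with a log2(FPKM + 1) difference of 3.78 (standard error 0.150). The differences of Mup2, Mup3 and Mup21 depend on the added 1 FPKM: with 0.1 FPKM in its place they were 11.42, 10.27 and 6.21.

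**Figure D1:**
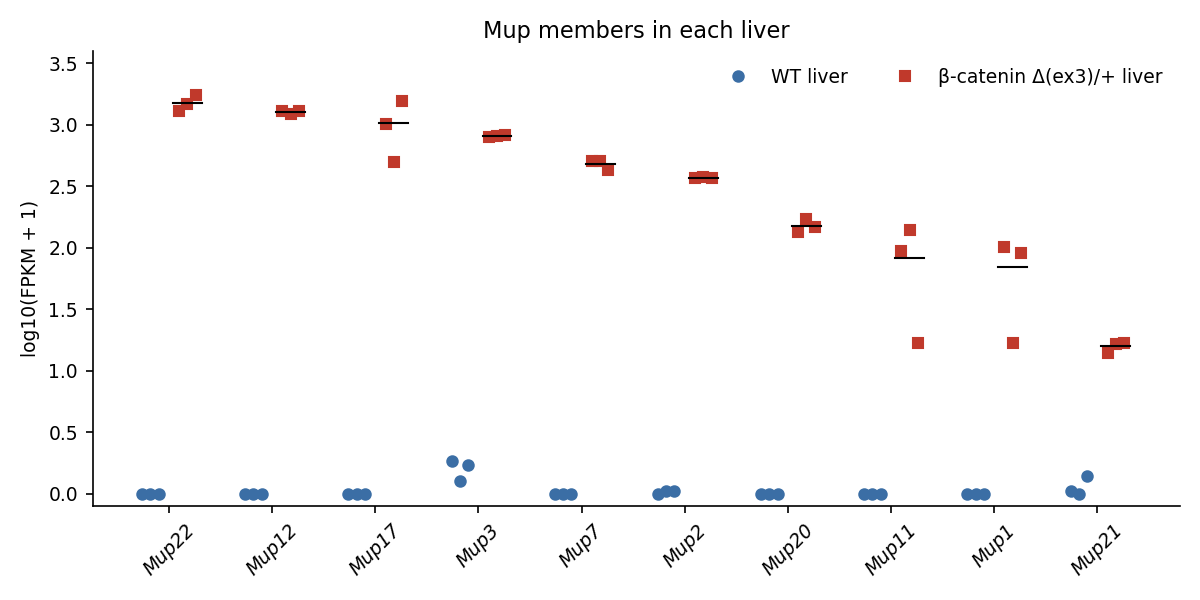
The vertical axis gives log10(FPKM + 1) for each of the 10 Mup members, with 1 point for each of the 3 WT (circles) and 3 mutant, that is β-catenin Δ(ex3)/+, livers (squares) and a line at the log10 of the mutant mean plus 1. The WT points lie at 0 or just above it, the highest being Mup3 at 0.845 FPKM, and the squares of Mup17, Mup11 and Mup1 spread the most.

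The levels of the members in mutant livers ran over a 102-fold range of means, from 14.8 FPKM for Mup21 to 1505 FPKM for Mup22. In this order the ranges of Mup22, Mup12, Mup17 and Mup3 overlapped from each gene to the next. Mup3 stayed above Mup7, Mup7 above Mup2, and Mup2 above Mup20 in all 3 livers against all 3. The ranges of Mup20 and Mup11, and of Mup11 and Mup1, overlapped, and Mup1 and Mup21 were barely separated, at 15.84 FPKM for the lowest Mup1 value and 15.72 FPKM for the highest Mup21 value. The coefficient of variation was 52.6% for Mup17, 66.9% for Mup1 and 75.1% for Mup11, and 15.2% or less for the other 7 members. For comparison, the median coefficient of variation over 1854 genes with a mean of at least 20 FPKM was 3.31% in these livers.

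Because near-identical genes share fragments, the members were also summed. In WT livers the sum came to 0.904, 0.325 and 1.18 FPKM, and in mutant replicates 1 to 3 to 5601, 5230 and 6484 FPKM. Group means of this sum were 0.804 ± 0.437 FPKM (SD, n = 3) and 5772 ± 644.6 FPKM (SD, n = 3), a log2 ratio of means of 12.81. Most of the WT sum was Mup3: without Mup3 the WT mean was 0.194 FPKM. The members took 1.21%, 1.11% and 1.37% of all FPKM in the mutant livers and at most 0.000266% in a WT liver. Mup22, Mup12 and Mup17 made up 23%, 23.1% and 18% of the member sum in replicate 1, 28.4%, 23.5% and 9.42% in replicate 2, and 26.9%, 19.8% and 24.2% in replicate 3. Replicate 2, with the lowest sum, had the lowest values of Mup17, Mup12 and Mup1. Replicate 3, with the highest sum, had the highest values of Mup17, Mup22, Mup3 and Mup21.

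**Figure D2:**
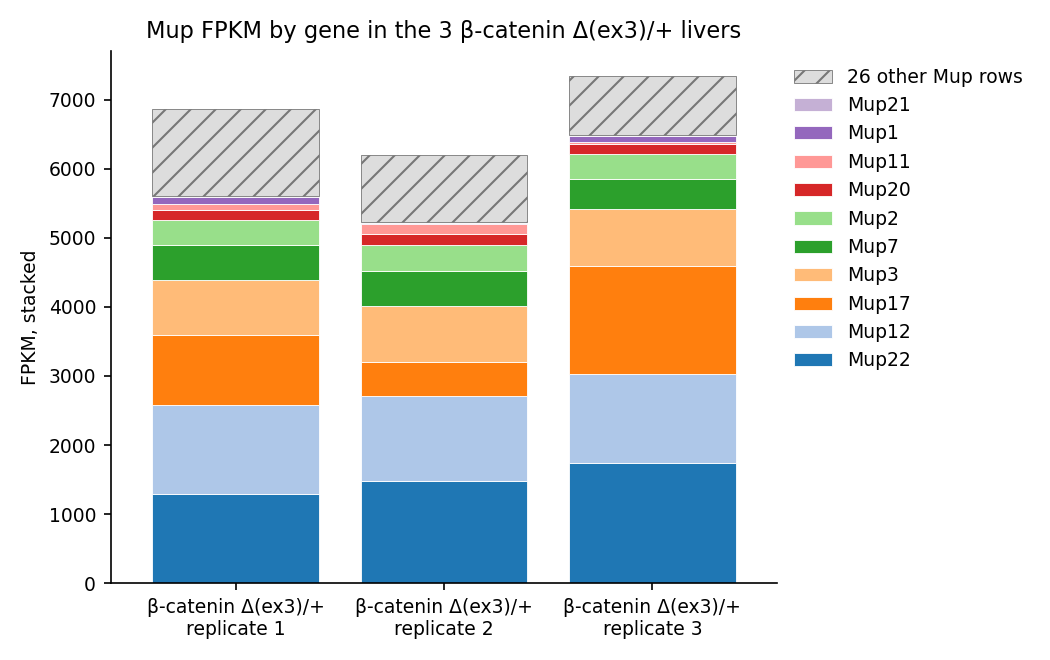
Stacked bars give the FPKM of each of the 10 members, and hatched the sum of the 26 other Mup rows, in each of the 3 mutant livers. The members add up to 5601, 5230 and 6484 FPKM, and the Mup17 segment changes most between livers, from 492.7 to 1569 FPKM.

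How much sequence a Mup transcript has to itself was measured as the share of its 100-base windows that are found in no other Mup gene. The share was 97.1% for Mup3, 95.5% for Mup21 and 61.2% for Mup20, the divergent members. It was 40.6% for Mup17, 22.5% for Mup12, 16.5% for Mup11, 12.9% for Mup7, 12.8% for Mup1 and 2.66% for Mup2. Mup22, listed with the highest level of the members, had none: 0 of its 762 windows were found in that gene alone. The 3 members with the most sequence of their own had coefficients of variation of 2.18%, 10.2% and 12.2%. Those of the other 7 ran from 0.779% for Mup2 to 75.1% for Mup11, so a small share of own sequence went with both the smallest and the largest spread. Over the 10 members, which share 3 libraries and much sequence, Pearson's r between the share and the coefficient of variation was -0.278 (Spearman's rho -0.164), and over 19 protein-coding Mup genes with a mean of at least 1 FPKM r was -0.355 (rho -0.312).

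**Figure D3:**
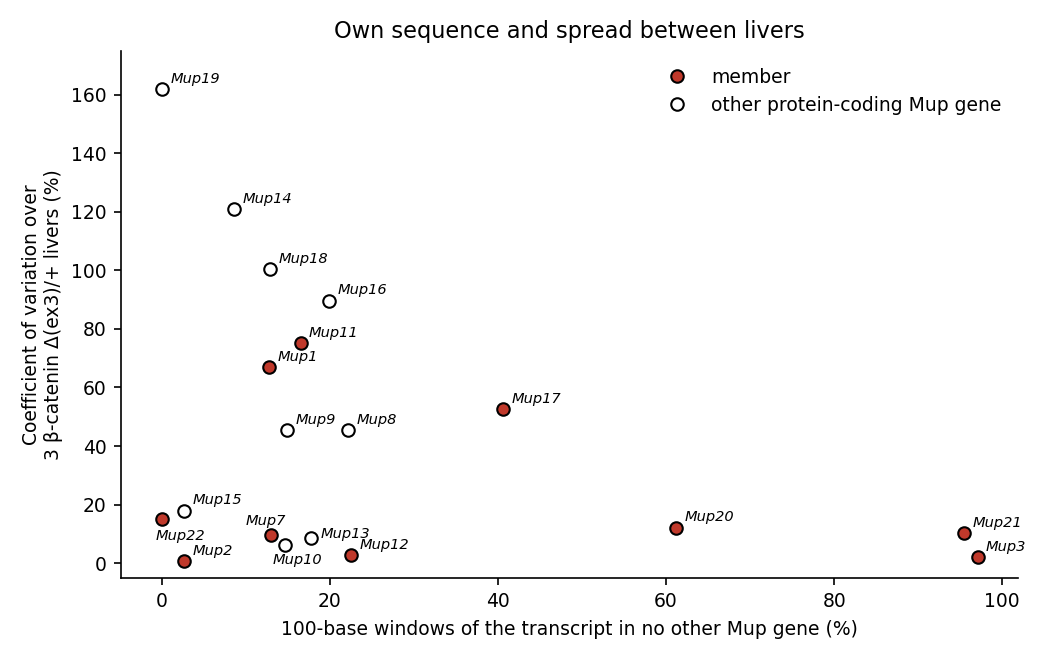
Each point is 1 of 19 protein-coding Mup genes with a mean of at least 1 FPKM, with the percentage of its 100-base windows found in no other Mup gene on the horizontal axis and its coefficient of variation (percent) over 3 mutant livers on the vertical axis. Mup3, Mup21 and Mup20 lie at the lower right, while genes with at most 22.5% own windows span 0.779% (Mup2) to 162% (Mup19).

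Genes linked by at most 2 differing coding bases formed 3 groups, which hold 11 of the 19 genes. Mup11, Mup18 and Mup22 made one group, whose single coefficients of variation were 15.2% to 100%. Their sum was 1619, 1728 and 1764 FPKM in mutant replicates 1 to 3, a coefficient of variation of 4.43%. The sum thus spread less than any of the 3 genes alone. Mup18 was highest, at 237.9 FPKM, in replicate 1, where Mup22 was lowest, and lowest, at 4.72 FPKM, in replicate 3, where Mup22 was highest. Mup2 formed a group with Mup9, Mup10, Mup15, Mup16 and Mup19, whose sum was 901.8, 824.6 and 740.6 FPKM, a coefficient of variation of 9.80%, with single values from 0.779% to 162%. Mup1 and Mup12 summed to 1396, 1243 and 1370 FPKM, with a coefficient of variation of 6.13%, which lay between the 2.88% of Mup12 and the 66.9% of Mup1. How the authors' software divided fragments among these genes was not tested.

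The choice of the 10 members left out genes with the same pattern. Of the 26 other Mup rows, 24 were listed at 0 in each WT liver, and the highest WT value was 0.0255 FPKM. In the mutant livers 11 of the 26 had a mean of at least 1 FPKM. Mup13 had 408.3, 353.7 and 352.6 FPKM and Mup10 had 184.8, 164.8 and 181.6 FPKM, which puts both within the range of the members. Mup15 had 73.7, 80.0 and 55.9 FPKM, and the row Mup-ps19, named as a pseudogene, had 53.4, 32.8 and 56.3 FPKM. The means of Mup18, Mup9, Mup16, Mup19, Mup14 and Mup8 lay between 12.1 and 116.5 FPKM, with coefficients of variation of 45.3% to 162%. Mup19 was the extreme, at 4.83, 140.9 and 1.56 FPKM. The pseudogene row Mup-ps13 averaged 1.05 FPKM. Mup6 and 4 pseudogene rows were listed at 0 in all 6 livers. Summed over all 36 rows, Mup FPKM were 6858, 6198 and 7341 in the mutant livers, of which the other rows held 1257, 968.3 and 856.3.

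The genes around the array were compared over all genes tested with limma on log2(FPKM + 1), with Benjamini-Hochberg adjustment. A gene was called at an adjusted p below 0.05 and a fold change of at least 2. Of all 13243 genes tested, 12.7% were called, 8.17% higher and 4.52% lower in mutant livers, and the median log2 difference was 0.144. With median-ratio scaling the median was 0.00814 and the share of calls that were higher moved from 64.4% to 53.1%. Within 1000000 bases of the array or inside it lay 42 genes that are no Mup gene, of which 23 were tested. Of these 4 were called higher and 1 lower, 21.7% in all, and their median log2 difference was 0.01. Hdhd3, 348 kb past the last Mup gene, rose from 18.8 ± 0.656 to 55.5 ± 1.96 FPKM (SD, n = 3, limma adjusted p = 1.93e-06). Alad, beside it, codes for an enzyme of heme synthesis and rose from 93.8 ± 5.79 to 194.9 ± 0.719 FPKM (limma adjusted p = 1.31e-05). Inside the array, Gm12909 rose from 4.204 ± 0.260 to 10.1 ± 1.72 FPKM (limma adjusted p = 0.000438). The calls of Alad and Gm12909 were lost with median-ratio scaling and quantile normalization, that of Alad also when FPKM were rescaled without Mup rows and without WT replicate 2, and that of Gm12909 without mutant replicate 2. Gm13775, which overlaps Mup-ps16, was listed at 0 in WT livers and had 1.14, 1.41 and 1.29 FPKM in mutant livers. It was called higher, but fell below the filter with a mean of at least 1 FPKM required and without mutant replicate 2. Ugcg, the glucosylceramide synthase gene 741 kb before the array, fell from 8.97 ± 0.488 to 2.29 ± 0.278 FPKM (limma adjusted p = 1.53e-05). Of the highest genes that were not called, Ambp had means of 2473 and 1646 FPKM, Slc31a1 33.7 and 37.9 FPKM, and Hsdl2 25.2 and 15.97 FPKM in WT and mutant livers.

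**Figure D4:**
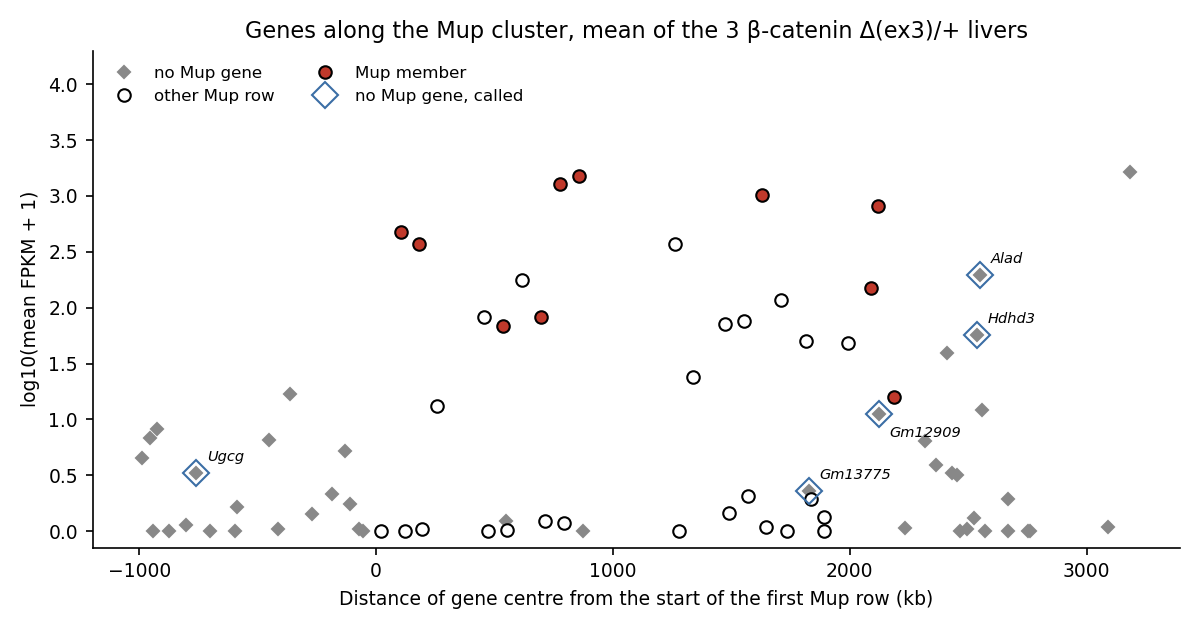
Points give genes along the Mup array, with the distance of the gene's centre from the start of the first Mup row in kb on the horizontal axis and the log10 of the mean FPKM plus 1 over 3 mutant livers on the vertical axis. Members (filled circles) and other Mup rows (open circles) are interspersed, and the 5 called genes that are no Mup gene (diamonds with an outline) include 2 inside the array, Gm13775 and Gm12909.

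Of 15 genes of the growth hormone and STAT5 pathway, all tested, 3 were called higher and 2 lower, 33.3% against the 12.7% of all genes, with a median log2 difference of 0.388. This list and those that follow were chosen with earlier results of these data known, so their shares of called genes are a description. Ghr, the growth hormone receptor, had 23.8, 23.7 and 23.5 FPKM in WT and 40.5, 40.4 and 41.8 FPKM in mutant livers, which was below the fold required. Igf1, the main hepatic target of growth hormone, had means of 45.4 ± 0.867 and 47.5 ± 0.384 FPKM (SD, n = 3, limma adjusted p = 0.144). Socs2, which codes for a feedback inhibitor of growth hormone signalling, fell from 5.61 ± 0.147 to 0.888 ± 0.124 FPKM (limma adjusted p = 4.79e-06). Cux2 codes for a repressor that is known to be specific to female liver, and fell from 3.74 ± 0.0949 to 0.105 ± 0.0210 FPKM (limma adjusted p = 1.05e-06). Bcl6, a repressor known to be higher in male liver, rose from 0.283 ± 0.0410 to 6.44 ± 0.271 FPKM (limma adjusted p = 6.66e-07). Socs3, which codes for a feedback inhibitor of cytokine receptors, rose from 1.88 ± 0.130 to 7.05 ± 0.709 FPKM (limma adjusted p = 2.52e-05). Igfals, which carries IGF1 in blood, had 4.11 FPKM in mutant replicate 1 and 32.4 to 39.5 FPKM in the other 5 livers.

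Of 17 regulators of Mup or liver genes, 15 were tested and 2 were called higher, 13.3% against the 12.7% of all genes. Hnf4a, a nuclear receptor that sets hepatocyte identity, rose from 57.6 ± 0.953 to 125 ± 1.07 FPKM (SD, n = 3, limma adjusted p = 1.24e-06), a call lost with median-ratio scaling and quantile normalization. Cebpb, a leucine zipper factor of the liver, rose from 27.7 ± 9.85 to 86.2 ± 4.03 FPKM (limma adjusted p = 0.00276). The related Cebpa had means of 78.0 and 98.2 FPKM, Foxa3 34.7 and 25.4 FPKM, and Foxa2 10.3 and 11.9 FPKM in WT and mutant livers.

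Of 17 genes known to be higher in male liver, 14 were tested and 13 were called higher, 92.9% against the 8.17% of all genes called higher, with a median log2 difference of 1.76. Cyp7b1, which hydroxylates oxysterols, rose from 0.597 ± 0.0403 to 162.9 ± 0.752 FPKM (SD, n = 3, limma adjusted p = 4.68e-09). Slco1a1, an uptake transporter for organic anions, rose from 0.137 ± 0.0806 to 21.3 ± 0.480 FPKM (limma adjusted p = 1.38e-07). Gstp1 rose from 116 to 378.5 FPKM, Ugt2b1 from 39.1 to 104.5 FPKM, Cyp2d9 from 27.7 to 58.5 FPKM, C6 from 2.00 to 42.6 FPKM, Egfr from 3.68 to 24.8 FPKM and Susd4 from 0.321 to 10.1 FPKM. Hsd3b5, Cyp2u1, Elovl3 and Cyp4a12a rose to means of only 1.37 to 3.15 FPKM. Obp2a, an odorant-binding lipocalin, was listed at 0 in WT livers and had 172.8, 169 and 168.5 FPKM in mutant livers. Selenbp2, at 46.7 and 86.3 FPKM, did not reach the fold required. The calls of Cyp2d9 and Hsd3b5 were lost with median-ratio scaling and quantile normalization, and that of Cyp2d9 also when FPKM were rescaled without Mup rows, without WT replicate 3 and without mutant replicate 2.

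Of 18 genes known to be higher in female liver, 17 were tested, 10 were called lower and 3 higher, 76.5% in all against 12.7% of all genes (4.52% lower and 8.17% higher), with a median log2 difference of -1.29. Sult2a1 and Sult2a2, sulfotransferases of steroids and bile acids, fell from 273.4 ± 16.2 to 0.147 ± 0.146 FPKM and from 315.1 ± 5.23 to 0.700 ± 0.351 FPKM (SD, n = 3, limma adjusted p = 6.81e-08 and 3.82e-07). Cyp3a16, Hao2, Cyp2c69, Cyp2b13, Cyp3a44, Cyp2b9 and Fmo2 fell as well, from 81.7 to 0.978 FPKM for Cyp3a16 and from 113.7 to 47.7 FPKM for Cyp2b9. Sult3a1, Cyp17a1 and Cyp2a4 went the other way. Sult3a1 was listed at 0 in WT livers and had 142.4, 143.2 and 140.8 FPKM in mutant livers, Cyp17a1 rose from 0.0725 to 18.3 FPKM and Cyp2a4 from 1.58 to 9.16 FPKM. Cyp2c40, at 38.6 and 22.5 FPKM, and Cyp3a41a and Cyp3a41b, at 24.7 to 31.6 FPKM in all 6 livers, were not called.

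Of 16 genes of the young liver, 12 were tested, 11 were called lower and 0 higher, 91.7% against the 4.52% of all genes called lower, with a median log2 difference of -2.83. H19, Igf2 and Afp, given above, fell the most, with limma adjusted p of 7.74e-10, 1.19e-09 and 8.94e-09. Gpc3 fell from 56.0 to 1.58 FPKM, Mest from 17.0 to 1.32 FPKM, Cd24a from 12.5 to 1.07 FPKM and Peg3 from 11.6 to 0.291 FPKM. Spink1, Plagl1, Igf2bp3 and Dlk1 fell from means of 1.35 to 4.55 FPKM to at most 0.0992 FPKM. Tff3, at 1.86 and 3.19 FPKM, was not called.

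**Figure D5:**
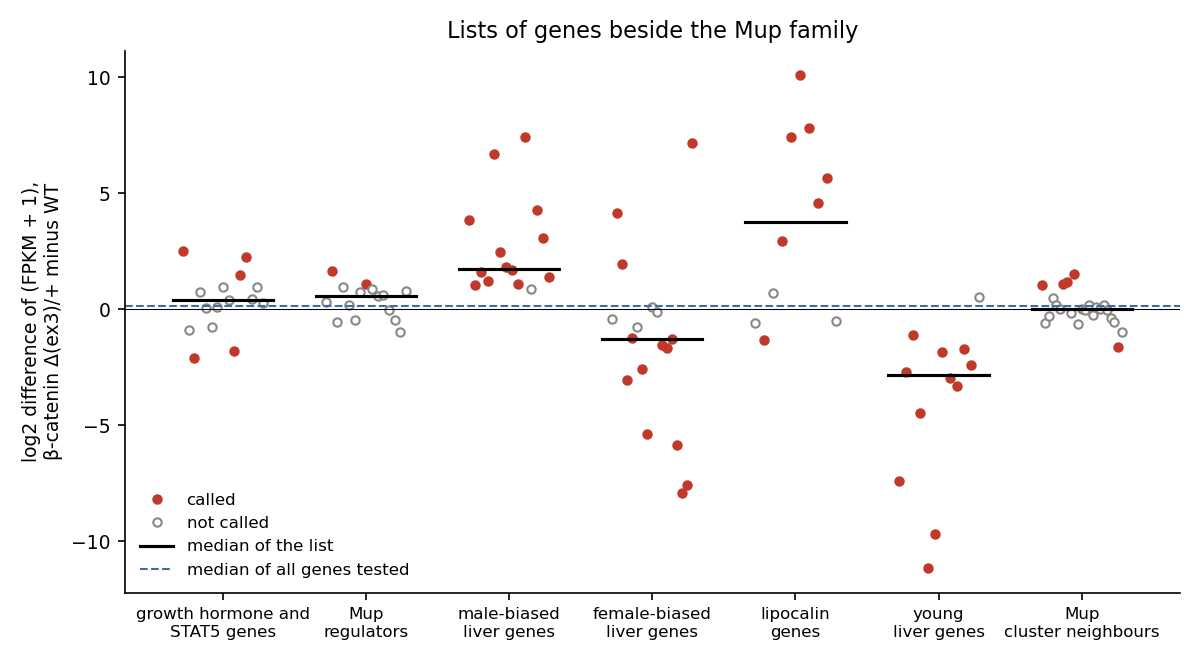
Each point is 1 tested gene of a list, with its log2 difference of (FPKM + 1), mutant minus WT, on the vertical axis. Filled points were called by limma, black bars are list medians (1.76 for male-biased, -1.29 for female-biased and -2.83 for young liver genes), and the dashed line is the median of all genes tested, 0.144.

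Genes outside the family with the pattern closest to the Mup genes were taken as those below 1 FPKM in every WT liver and at or above 50 FPKM in every mutant liver. Of the 10 members 7 met this rule, all but Mup1, Mup11 and Mup21, and 11 other genes did. The highest was Orm1, which codes for an acute-phase lipocalin of plasma, with 0.880, 0.578 and 0.676 FPKM in WT and 1816, 1857 and 1888 FPKM in mutant livers. It lies on chromosome 4 as well, 1194 kb past the last Mup gene, and Orm2, its neighbour, had means of 0.422 and 316.6 FPKM. Scd1, the stearoyl-CoA desaturase, had 0.808 and 276.3 FPKM, and Thrsp, a thyroid hormone-responsive gene of lipid synthesis, 0.258 and 164.6 FPKM. Obp2a, Cyp7b1, Cyp2c39 and Sult3a1 followed, with mutant means of 170.1, 162.9, 143.3 and 142.1 FPKM. Over the 6 livers, Pearson's r of log2(FPKM + 1) with the log2 of the summed Mup FPKM plus 1 was 0.999 to 0.9997 for these 8 genes, which restates the gap between the groups that chose them. Within the mutant livers their coefficients of variation were 0.462% to 3.04%, against 11.2% for the summed members.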

How the data were processed

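RNA-seq of 6 livers, 3 WT and 3 mutant (β-catenin Δ(ex3)/+), was analysed from 1 table of FPKM per gene and liver, as deposited by the authors. Replicate numbers are those of the labels. The submitters' processing notes name cutadapt 1.9, HISAT2 2.0.4, StringTie 1.3.4d, DESeq2 and edgeR. The genome build is not given in the sources used here. FPKM are not counts, so DESeq2 and edgeR were not run and depth is an estimate, with no counting intervals. The table was mapped with 0 columns left unused.

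Genes with a mean of at least 0.5 FPKM were fitted on log2(FPKM + 1) with limma 3.58.1 in R 4.3.3 (lmFit, eBayes with trend), which was tested on simulated data. Fold changes on this scale understate those of low genes. P-values set the group difference against the spread within the groups of these livers only, drawn towards a trend over all genes tested. They cannot separate genotype from the sex-linked and young-liver genes that moved with it. The members and all lists were chosen with earlier results of these data known. Named were all members, other Mup rows of at least 1 FPKM, called list genes and up to 3 uncalled ones; some genes of the lists are counted but not reported here. Coding sequences (GENCODE M21, 1 transcript per gene with a CCDS entry where there was one) and promoters were aligned with MAFFT 7.526. Coding bases took the place of the planned protein comparison. Python 3.11.15, pandas 2.3.3, numpy 2.4.6 and matplotlib 3.10.9 were used. Alternatives were a pseudocount of 0.1, no filter, a mean of at least 1 FPKM, median-ratio scaling, quantile normalization, rescaling without Mup rows, eBayes without trend, a replicate block, and each liver left out.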

Additional observations from a re-analysis of the deposited data

How the results depend on the processing

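Of 284 values recomputed under the alternatives, 261 stayed within 1.5 times (counts) or the spread between replicates (levels), 23 moved and 0 reversed. With a pseudocount of 0.1, 1706 genes were called higher and 999 lower in place of 1082 and 598, with 5 higher for the growth hormone and STAT5 genes, 4 higher for the Mup regulators and 3 lower among the neighbours of the array. With median-ratio scaling and with quantile normalization, 1 Mup regulator was called higher (Cebpb) and 1 lower (Thrb), and 2 neighbours were called higher and 2 lower. The mean summed FPKM of mutant livers was 6799 over every Mup row and 4266 without Mup22. With single livers left out, 3 to 5 growth hormone and STAT5 genes were called higher (5 without WT replicate 2, with Stat5a and Prlr added), 0 to 1 Mup regulators lower (Thrb without mutant replicate 1), and 2 to 4 neighbours higher (2 without mutant replicate 2). The summed mean then ran from 5415 to 6043 FPKM, and its log2 ratio to WT from 12.43 to 13.2. With the replicate block, 1075 genes were called higher and 598 lower. By the labels, same-numbered livers shared only a number. Their deviations from the group means correlated at 0.0268, 0.0213 and -0.0054, against -0.036 to 0.0121 for livers of different number. The block changed no count of a list, and whether same-numbered livers shared a litter, day or batch was not tested. The causes of these shifts were not tested. The 3 livers per group, the unknown depth and the fragments shared among near-identical Mup genes limit every single-gene value.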

Other observations

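Lipocalin genes outside the Mup family were counted as a list of 15, of which 12 were in the table and 10 were tested. By limma, 6 were called higher and 1 lower in mutant livers, 70% against 12.7% of all genes tested, with a median log2 difference of 3.76. The members called higher were Orm1, Orm2 and Orm3 (plasma acid glycoproteins of the acute phase), Obp2a (an odorant-binding protein), Lcn2 (an iron-siderophore carrier) and Ptgds (a prostaglandin synthase). Lcn2 rose from 10.6 ± 0.878 to 88.5 ± 2.98 FPKM (SD, n = 3, limma adjusted p = 5.04e-07), and Ptgds from 0.183 ± 0.267 to 58.7 ± 2.32 FPKM (limma adjusted p = 1.28e-06). Orm3 was listed at 0 in WT livers and had 23.7, 23.8 and 21.2 FPKM in mutant livers. Apom, the apolipoprotein that carries sphingosine-1-phosphate on HDL, went the other way, from 642 ± 20.2 to 258.2 ± 6.70 FPKM (limma adjusted p = 1.2e-06). Rbp4, the plasma retinol carrier, and Ambp, the precursor of bikunin, were among the most abundant lipocalins in both groups, with means of 2655 and 2473 FPKM in WT and 1881 and 1646 FPKM in mutant livers, and C8g had 137 and 220.9 FPKM. None of these 3 reached the fold required. Obp2a is also on the list of genes higher in male liver, and Ambp is also a neighbour of the Mup array.

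Livers of the same group differed widely for a few genes. Nr3c1, the glucocorticoid receptor gene, had 0.110 FPKM in WT replicate 3 and 6.35 to 6.91 FPKM in the other 5 livers. Thrb, a thyroid hormone receptor gene, had 0.233 and 0.137 FPKM in mutant replicates 2 and 3 and 2.03 to 2.22 FPKM in the other 4 livers.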
